A study of Homo sapiens with 8 samples.

Results

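The replication-dependent histone genes were examined in ZR-75-1 breast cancer cells in which EI24 was knocked down. The members were the transcript clusters, the array's unit of 1 gene or a few near-identical genes, whose symbols all name such histones by the current H1-, H2AC, H2BC, H3C and H4C style or by the older HIST names. The clusters were chosen by these symbols alone, but the family was selected on its log2 differences between ZR-shEI24 and control cells in these same arrays, with those results known. They numbered 82 of 33297 clusters on the array and of the 21214 that carry a gene symbol. Of the 82, 10 belonged to class H1, 16 to H2A, 22 to H2B, 14 to H3 and 17 to H4, and 3 held symbols of more than 1 class. A single symbol was given to 63 clusters and several to 19, and 4 clusters repeated the values of another member exactly, which left 78 distinct sets of values. The symbols covered 78 of 97 such genes in RefSeq, and 1 further cluster was left out because it shared its probes with a gene that is not a histone. By the same naming rule, 5 pseudogenes or H1 genes outside the replication-dependent set came in and were kept.

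ZR-75-1 cells are cultured luminal breast cancer cells that express the estrogen receptor. Total RNA came from 2 lines carrying an shRNA to EI24 (shEI24 clone 1 and clone 2, ZR-shEI24 cells), from a line whose shRNA targets GFP (shGFP) and from parental cells without any shRNA. Each line was hybridised to 2 arrays, 8 in all, and no chemical treatment was applied. Each ZR-shEI24 line was given as a single clone, so a difference of 1 clone may belong to that clone. No source says whether both arrays of a line stem from different cultures, and p-values therefore describe array-to-array spread that may be purely technical. EI24 itself averaged 8.54 in clone 1 and 9.22 in clone 2 on the log2 scale, against 11.94 in shGFP and 12.09 in parental cells (limma difference of the clones from shGFP -3.06, SE 0.08, adjusted p = 1.2e-08). All 8 luminal markers examined were lower in the clones than in shGFP, with ESR1 (-4.80) and CDH1 (-6.11) among the dimmest 25% of named clusters there.

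Replication-dependent histone genes encode the core histones H2A, H2B, H3 and H4, around which DNA is wound, and the linker histone H1, which binds where DNA enters and leaves the nucleosome. They lie in many copies in a few gene clusters and are transcribed mainly in S phase, when new DNA has to be packed. Most of their mRNAs end in a conserved stem-loop bound by SLBP in place of a poly(A) tail, and NPAT coordinates their transcription. The copies of a class encode nearly the same protein and share long stretches of sequence, so array probes can pick up more than 1 of them and the value of a single gene is uncertain to that extent.

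The promoters of 4 members are shown because they are those of the member with the largest fall (H2BC7), the most changed H4 and H1 members (H4C5 and H1-5) and the member with the largest rise (H2BC3). The sequences are from RefSeq on GRCh38.p14 and run 5′ to 3′ along the gene from 250 bases before its start to 50 after it. Capitals mark, on either strand, the octamer ATTTGCAT, the CCAAT box CCAAT, the TATA box TATAAA and the H1 box AAACACA, none of which holds another.
H2BC7 (chr6:26199266-26199565, plus strand): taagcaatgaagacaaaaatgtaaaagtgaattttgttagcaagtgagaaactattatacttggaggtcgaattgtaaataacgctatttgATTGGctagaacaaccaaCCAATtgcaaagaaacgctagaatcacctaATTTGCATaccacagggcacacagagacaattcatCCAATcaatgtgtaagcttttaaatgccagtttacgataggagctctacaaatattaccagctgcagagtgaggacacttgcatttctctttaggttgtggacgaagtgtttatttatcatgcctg
H4C5 (chr6:26204360-26204659, plus strand): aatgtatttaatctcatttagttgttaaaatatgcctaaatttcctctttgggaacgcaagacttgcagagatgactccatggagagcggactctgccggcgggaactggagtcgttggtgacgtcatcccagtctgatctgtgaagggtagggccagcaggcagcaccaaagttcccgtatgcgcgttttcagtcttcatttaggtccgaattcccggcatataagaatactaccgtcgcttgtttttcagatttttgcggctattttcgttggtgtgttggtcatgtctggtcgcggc
H1-5 (chr6:27867539-27867838, minus strand): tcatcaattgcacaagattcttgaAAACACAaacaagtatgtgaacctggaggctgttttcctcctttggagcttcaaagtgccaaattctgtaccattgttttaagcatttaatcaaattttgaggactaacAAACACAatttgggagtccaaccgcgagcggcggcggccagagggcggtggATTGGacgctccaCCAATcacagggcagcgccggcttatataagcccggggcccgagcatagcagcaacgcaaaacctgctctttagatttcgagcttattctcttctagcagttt
H2BC3 (chr6:26043664-26043963, minus strand): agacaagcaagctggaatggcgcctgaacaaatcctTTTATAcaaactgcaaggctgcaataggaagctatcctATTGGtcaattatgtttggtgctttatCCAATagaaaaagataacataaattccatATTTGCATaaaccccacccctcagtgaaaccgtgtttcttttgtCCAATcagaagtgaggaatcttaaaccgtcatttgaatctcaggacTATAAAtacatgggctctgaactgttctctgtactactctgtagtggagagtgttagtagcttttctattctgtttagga
The octamer stood in the windows of both H2BC7 and H2BC3, the H1 box in that of H1-5, and none of the 4 motifs in that of H4C5. Of the 78 symbols, 68 had a promoter window. The octamer was found in 14 of 18 H2B windows (77.8%) and 11 of 16 H2A windows (68.8%), against 2.19% of all 27305 genes. It stood in 1 of 12 H3 windows and no H1 or H4 window. These counts and shares are of genes, each counted once if any of its windows held the motif. The CCAAT box was found in every H2A, H2B and H3 window and in 8 of 9 H1 windows but in 3 of 13 H4 windows (23.1%), against 39.7% of all promoters. The H1 box was found in 7 of 9 H1 windows (77.8%), against 6.94% of all promoters. A TATA box stood in 4 of 9 H1, 12 of 16 H2A, 12 of 18 H2B, 10 of 12 H3 and 7 of 13 H4 windows, against 14% of all.

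Most histone clusters were lower in ZR-shEI24 cells. With the mean of the 2 clones set against shGFP in limma, 69 of the 82 members were lower and 3 higher at an adjusted p under 0.05, and 10 did not pass. Of all 21214 named clusters, 29.3% were lower and 25.9% higher in the same comparison. A fall of at least 2-fold was measured for 53 members, against 9.30% of all named clusters, and a fall of at least 16-fold for 9 members, against 0.231% of all. The median difference of the members was -1.30 on the log2 scale, against 0.07 over all named clusters. In 65 members all 4 clone arrays lay below all 4 shGFP and parental arrays, and in 3 all lay above (26.9% and 23.1% of all named clusters), while the arrays of the other 14 overlapped. Because the histone genes were taken up with results of these arrays known, these counts describe the family and carry no test of it. In bulk RNA, fewer cells in S phase and less histone mRNA per cell cannot be told apart.

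**Figure D1:**
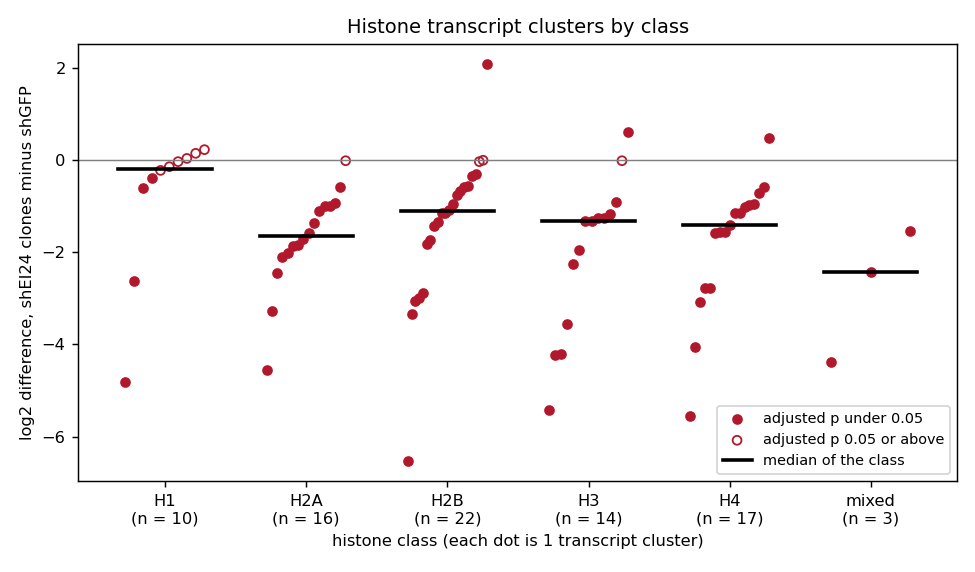
Log2 difference of the mean of the 2 shEI24 clones minus shGFP (vertical axis) for each of the 82 histone transcript clusters, by class (horizontal axis). Filled dots passed limma at an adjusted p under 0.05, open dots did not, and bars mark class medians, which run from -0.19 for H1 to -1.65 for H2A among the 5 classes. The H1 class includes H1 genes outside the replication-dependent set.

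In each of the 4 core histone classes most clusters were lower. The median log2 difference was -1.65 for H2A (15 of 16 lower), -1.11 for H2B (19 of 22 lower, 1 higher), -1.33 for H3 (12 of 14 lower, 1 higher) and -1.42 for H4 (16 of 17 lower, 1 higher). For H1 it was -0.19, with 4 of 10 clusters lower and 6 not past the test. These 10 include H1 genes outside the replication-dependent set. Without them, the 6 H1 clusters of chromosome 6 had a median of -0.42, with 3 lower. The 3 clusters that mix classes were all lower, with a median of -2.43. In the plot by class, each core class holds falls beyond -4 as well as differences smaller than 1.

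Among H2B genes, H2BC7 showed the largest fall of all members. Its log2 intensity was 4.92 and 5.09 in clone 1 and 4.70 and 4.65 in clone 2, against 11.37 and 11.40 in shGFP and 10.91 and 10.94 in parental cells. The clones and the control lines were far apart, with no overlap (difference from shGFP -6.54, SE 0.08, adjusted p = 6.7e-10, a 93.3-fold lower level). H2BC9 stood at 9.24 and 9.22 in clone 1 and 8.21 and 8.43 in clone 2, against 12.16 and 12.09 in shGFP and 12 and 11.93 in parental cells. All 4 of its clone arrays lay below the controls, and those of clone 2 lay below those of clone 1 (difference from shGFP -3.35, SE 0.08, adjusted p = 8.1e-09). The cluster of H2BC19P, a pseudogene on chromosome 1, fell by a similar amount (-3.06, adjusted p = 5.6e-06), although one that names H2BC19P together with H2BC20P and H2BC21 fell by only 0.60. Clusters that name the same gene thus gave different values.

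Among H2A genes, H2AC8 was at 4.61 and 4.49 in clone 1 and 4.77 and 4.15 in clone 2, against 9.21 and 8.91 in shGFP and 8.82 and 8.46 in parental cells. The groups did not overlap (-4.55, SE 0.18, adjusted p = 9.9e-08). H2AC14 was at 4.98 in both clone 1 arrays and 4.64 and 4.70 in clone 2, against 8.29 and 7.93 in shGFP and 7.85 and 7.28 in parental cells (-3.28, adjusted p = 3.1e-07). On chromosome 1, H2AC21 kept more signal, at 10.80 and 10.81 in clone 1 and 9.96 and 10.01 in clone 2, against 12.82 and 12.87 in shGFP and 12.70 and 12.73 in parental cells (-2.45, adjusted p = 1.5e-08), and H2AC20 fell by 1.10. The 2 arrays of a line stood close together in both.

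Among H3 genes, H3C11 was at 7.81 and 7.75 in clone 1 and 7.47 and 7.51 in clone 2, against 13.08 and 13.05 in shGFP and 12.89 and 12.78 in parental cells. Its values in the clones and the controls did not overlap, and the fall was 43.0-fold from shGFP (-5.43, SE 0.07, adjusted p = 8.6e-10). A second cluster that names H3C11 with H3C6 stood at 3.85, 4.09, 3.79 and 4.35 in the clone arrays, against 8.26 and 8.27 in shGFP and 8.26 and 7.73 in parental cells (-4.24, adjusted p = 1.7e-07), and H3C8 was lower by a similar amount (-4.21, adjusted p = 1.5e-08). The chromosome 1 genes H3C13, H3C14 and H3C15, which share 4 clusters, fell less, by 1.18 to 1.33 on the log2 scale.

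Among H4 genes, H4C5 was at 5.93 and 6.33 in clone 1 and 5.44 and 6.20 in clone 2, against 11.50 and 11.55 in shGFP and 11.49 and 11.23 in parental cells. This was the largest fall of the class and left no overlap (-5.55, SE 0.20, adjusted p = 6.0e-08, a 46.8-fold lower level). H4C4 (-4.07, adjusted p = 2.1e-06) and H4C6 (-3.09, adjusted p = 2.7e-07) followed. H4C3 stood at 12.71 and 12.56 in clone 1 and 11.67 and 11.75 in clone 2, against 13.10 and 13.18 in shGFP and 13.07 and 12.99 in parental cells (-0.97, adjusted p = 9.5e-06). Both clone 2 arrays lay below both clone 1 arrays. With each line as 1 replicate, the 2 clones against shGFP and parental cells, the test on H4C3 no longer passed (adjusted p = 0.092).

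Among the linker histones, H1-5 stood at 6.73 and 6.96 in clone 1 and 6.48 and 6.98 in clone 2, against 11.63 and 11.59 in shGFP and 11.52 and 11.32 in parental cells. The fall was 28.3-fold from shGFP with no overlap (-4.82, SE 0.14, adjusted p = 1.8e-08), and H1-3 fell by 2.62 (adjusted p = 1.8e-08). H1-2 was less changed (-0.62, adjusted p = 1.6e-04), and lost its call with each line as 1 replicate (adjusted p = 0.15). H1-4 stood at 13.63 and 13.73 in clone 1 and 13.57 and 13.55 in clone 2, against 13.75 and 13.79 in shGFP and 13.67 and 13.60 in parental cells. The clone arrays overlapped those of parental cells and the difference of -0.15 did not pass (adjusted p = 0.11), although it passed with limma's trend and robust variance (adjusted p = 0.0010). H1-10, a replication-independent linker histone kept by the naming rule, differed by -0.40 (adjusted p = 0.0018), from -0.73 in clone 1 (adjusted p = 1.3e-04) and -0.07 in clone 2, which did not pass (adjusted p = 0.50).

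**Figure D2:**
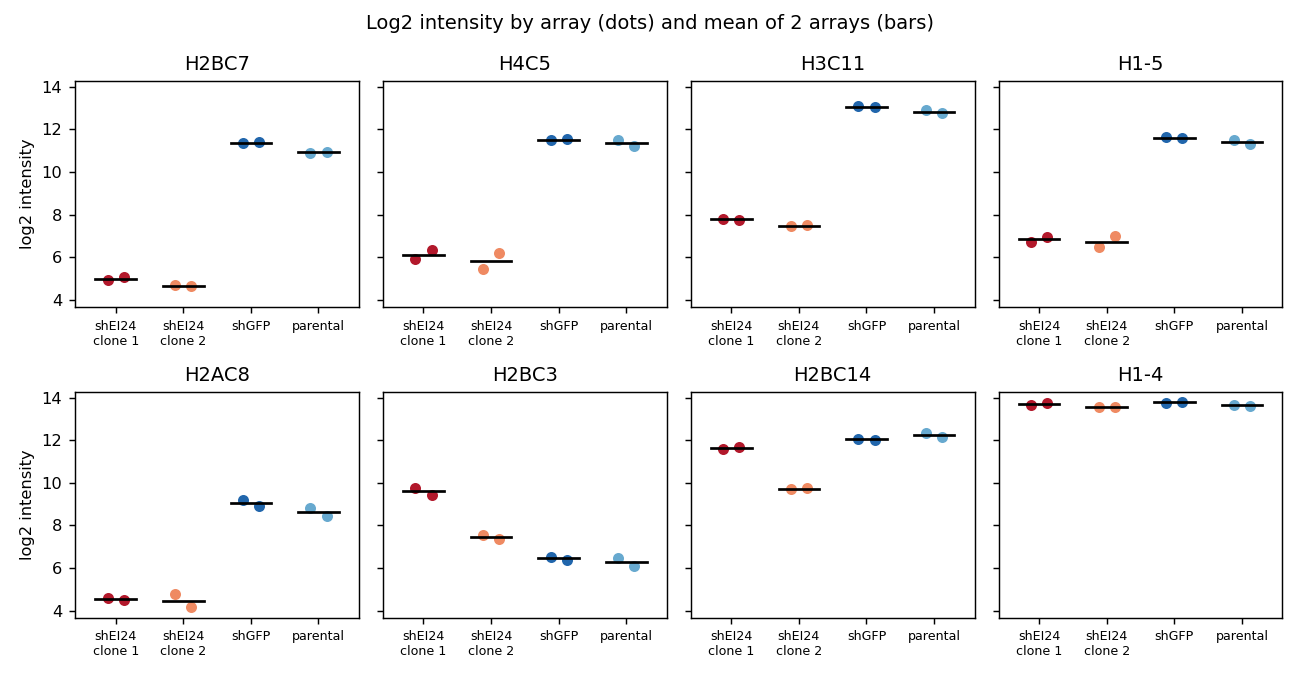
Log2 intensity (vertical axis) of 8 histone genes on the 8 arrays, by line (horizontal axis), with a dot for each array and a bar for the mean of the 2 arrays. In H2BC7, H4C5, H3C11, H1-5 and H2AC8 both clones lie far below shGFP and parental cells, H2BC3 lies above them, H2BC14 is low mainly in clone 2, and H1-4 is nearly level.

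Of the members called lower, 16 lay among the dimmest 25% of named clusters in the clones, where background makes up much of an intensity, so that their falls may be understated. H2BC7 was at percentile 4.8 of the named clusters in the clones and 95.4 in shGFP, and H2AC8 at 2.8 and 68.9. H3C11, by contrast, stayed at percentile 44.7 in the clones, against 99.6 in shGFP. Of the 10 members that did not pass, 4 lay among the dimmest 25% in both the clones and shGFP, namely H1-1, the testis histones H1-6 and H2BC1, and H2AC1. The other 6 were H1-4, H1-7, H1-8, H1-9P, H3-4 and 1 of the clusters naming H2BC18 and H2BP1.

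The falls were uneven along chromosome 6, where 55 of the clusters could be put in the gene order of GRCh38.p14. In the second and largest of the 4 gene groups there, 14 neighbouring clusters from H4C4 to H2BC10 had a median difference of -3.82, against -0.95 for the other 17 clusters of that group. Of these 14, 13 were lower, by -2.62 (H1-3) to -6.54 (H2BC7). The remaining one, H4C7, was among the dimmest 25% in every line and rose slightly (0.47, adjusted p = 0.0018). The next clusters on either side, H2BC6 and H4C8, differed by -1.15 and -1.58. The ends of this stretch were set after the values were seen, so no test was made of it, and the neighbours share sequence.

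The stretch held 7 of the 9 members that were at least 16-fold lower, and the other 2, H1-5 and H3C11, were next to each other in the last chromosome 6 group. Among the 7 was the cluster that names both H3C11 and H3C6, which was placed in the stretch by H3C6. Which of these 2 genes gave its signal was not tested, so it may belong to the last group. Of 15 promoter windows in the stretch, 7 held the octamer, 12 the CCAAT box and 8 the TATA box. Of 15 in the rest of the group, 5 held the octamer, 13 the CCAAT box and 11 the TATA box. The last chromosome 6 group was lower in 17 of 17 clusters (median -1.85), the third in 5 of 5 (median -1.37) and the large chromosome 1 group in 15 of 15 (median -1.26). Of all named clusters, 29.3% were lower. All 4 clusters that repeat the values of another member lie in this chromosome 1 group, so its 15 clusters are not all distinct. The first chromosome 6 group, H2AC1 and H2BC1, showed no change past the test (-0.02 and -0.04). RefSeq lists 2 genes other than histones inside the stretch and neither had a cluster of its own with a single symbol. HFE, an iron-regulating gene among the members of the same group, was higher (0.39, adjusted p = 0.0020).

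The genes that flank the second chromosome 6 group went the other way where they passed. Of 10 flanking genes, taken up after the histone values were seen, 6 were higher and none lower (25.9% and 29.3% of all named clusters). The 6 higher genes were TRIM38 (4.32, adjusted p = 5.2e-09), the butyrophilin genes BTN3A3 (2.56), BTN3A1 (2.46), BTN3A2 (2.36) and BTN2A2 (1.31), and BTN2A3P (1.04). TRIM38 encodes a ubiquitin ligase of innate immune signaling. Around the last group of chromosome 6, 3 of 10 flanking genes were lower (ZSCAN16 -1.53, ZNF165 -1.07 and ZNF184 -0.75) and none higher, close to the 29.3% lower among all named clusters. In clone 2 alone, 2 of these 10 were higher than in shGFP (24.3% of all named clusters). TRIM38 lies before the first histone gene of the second group and the butyrophilin genes after its last, and whether their rise bears on the histone falls was not tested.

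H2A and H2B genes often lie head to head and share the stretch between their starts. Pairs were taken only where each gene had a cluster with a single symbol. In 9 such pairs the windows overlapped by 253 to 286 bases, and both genes of a pair were lower in 8. Among all members, 15 of 16 H2A and 19 of 22 H2B clusters were lower, so this count is not particular to the pairs. The falls within a pair could still be unequal. H2AC8 fell by 4.55 and its partner H2BC8 by 2.89, while H2AC14 fell by 3.28 and its partner H2BC14 by 1.35. H2AC11 and H2BC11, at -1.37 and -1.43, were nearly equal. H2BC1 and H2AC1 were the pair in which neither passed.

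Only 3 of the 82 members were higher in the clones, H2BC3, H3C3 and H4C7. H2BC3, which encodes an H2B, was at 9.77 and 9.42 in clone 1 and 7.57 and 7.38 in clone 2, against 6.53 and 6.38 in shGFP and 6.48 and 6.09 in parental cells. Both clones lay above all control arrays, clone 1 by far more (clones minus shGFP 2.08, SE 0.14, adjusted p = 2.5e-06). With each line as 1 replicate this did not pass (adjusted p = 0.078). Its neighbour H3C3 was at 7.79 and 8.09 in clone 1 and 7.56 and 7.62 in clone 2, against 7.26 and 7.04 in shGFP and 7.06 and 7.12 in parental cells (0.61, adjusted p = 9.6e-04). H2AC4, on the other side of H2BC3 in gene order, was lower (-1.59, adjusted p = 1.1e-06).

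Each clone was also set against shGFP alone, and these comparisons share the shGFP arrays. In clone 1, 64 members were lower and 3 higher (27.0% and 22.2% of all named clusters), 39 were at least 2-fold lower (8.56% of all), and the median difference was -0.94. In clone 2, 68 were lower and 3 higher (27.9% and 24.3% of all), 58 were at least 2-fold lower (10.1% of all), and the median was -1.69. The clones were then compared with each other directly. Clone 1 was higher than clone 2 in 44 members and lower in 2, H1-3 and H1-10, against 8.77% and 5.55% of all named clusters, and the median difference was 0.40, against -0.02 over all. At least 2-fold higher levels in clone 1 were measured for 11 members (1.06% of all). The unpaired t-test named in the methods (the methods' t-test), with 2 arrays against 2, called no member after adjustment and 38 at an unadjusted p under 0.05. After adjustment it called 0.0189% of all named clusters, against 14.3% with limma.

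The difference between the clones was uneven across the members. By class, 9 of 16 H2A, 12 of 22 H2B, 8 of 14 H3 and 13 of 17 H4 clusters were higher in clone 1, but only 1 of 10 H1 clusters (1 of 6 on chromosome 6). H2BC14 stood at 11.59 and 11.69 in clone 1 and at 9.70 and 9.74 in clone 2, with shGFP at 12.07 and 12 and parental cells at 12.35 and 12.13. Clone 1 thus lay close under the controls and clone 2 well below them (clone 1 minus clone 2 1.92, SE 0.10, adjusted p = 2.8e-05). H3C12 was at 9.06 and 9.22 in clone 1 and 7.29 and 7.41 in clone 2, against 10.26 and 10.15 in shGFP (clone 1 minus clone 2 1.79, adjusted p = 3.3e-05). With each line as 1 replicate, the falls of H2BC14 and H3C12 in the clones no longer passed (adjusted p = 0.15 and 0.071). H3C1 and H4C8 differed in the same direction, by 1.60 and 1.53. In the stretch from H4C4 to H2BC10, 2 of 14 clusters were higher in clone 1 and 1 was lower (median 0.28), against 12 of 17 higher in the rest of the group (median 0.60). Of the 14, 8 lay among the dimmest 25% of named clusters in the clones, where differences are compressed, so the 2 counts are not comparable.

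Few histone clusters differed between the control lines. Between shGFP and parental cells 6 members were higher and none lower (3.42% and 6.96% of all named clusters), with a median difference of 0.09, 19 had an unadjusted p under 0.05, and none differed by 2-fold (0.292% of all were at least 2-fold higher and 0.405% lower). The methods' t-test called none after adjustment (0.0519% of all named clusters) and 15 without it. The 6 were H2AC6, H2BC7, H2AC13, H2AC15 and 2 clusters that name H4C11 and H4C12. H2AC15 stood at 10.91 and 10.89 in shGFP and at 10.41 and 10.04 in parental cells (0.68, SE 0.14, adjusted p = 0.021), and 1 of the H4C11 and H4C12 clusters at 11.49 and 11.54 in shGFP and at 11.02 and 10.87 in parental cells (0.57, adjusted p = 0.0068). With the replicate number as a block, 12 members passed, 11 of them higher, while the share called of all named clusters was 17.9%, against 10.4% without the block. With any 1 array of shGFP or parental cells left out, fewer members passed, and the median difference was between 0.04 and 0.13. Each such fit leaves 1 array in a line, and fewer of all named clusters passed there as well.

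Histone genes expressed outside S phase as well were lower too. Of 12 listed, 9 were measured and all 9 were lower in the clones than in shGFP, with a median of -0.46 (29.3% of all named clusters were lower). Against shGFP separately, 7 of the 9 were lower in clone 1 and 8 in clone 2. MACROH2A2, a macroH2A, fell by 2.93 (adjusted p = 6.0e-07) and H2AX, the H2A form phosphorylated at DNA breaks, by 0.96, while H2AZ1 differed by -0.29 and H3-3B, which encodes H3.3, by -0.57. The replication-dependent genes listed as also making polyadenylated transcripts fell too (6 of 6, median -0.81), from -0.59 for H2AC6 to -1.83 for H2BC21.

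The genes that act on histone mRNA were mixed. Of 18 measured, 3 were higher, 8 lower and 7 did not pass, with a median of -0.12. Of all named clusters, 25.9% were higher and 29.3% lower. NPAT, the coactivator of histone gene transcription, was higher (0.69, adjusted p = 3.0e-04). SLBP, which binds the stem-loop, did not pass (0.08, adjusted p = 0.34). Cyclin E2 (CCNE2), a partner of the kinase CDK2 that phosphorylates NPAT, was lower (-1.08, adjusted p = 9.3e-06) and stood 1.5 higher in clone 1 than clone 2. ZNF473, a zinc finger protein of the U7 processing complex, and NCBP1, the larger subunit of the nuclear cap-binding complex, fell by 1.01 and 0.89. CASP8AP2, a protein of the histone locus body, fell by 0.75.

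The chaperones that carry newly made histones were lower in 15 of 20 and higher in none (29.3% and 25.9% of all named clusters), with a median of -0.65. RBBP4 (-1.51) and RBBP7 (-1.05), which bind H4, HIRA (-1.0), which deposits H3.3, and HAT1 (-0.99), which acetylates new H4, had the largest falls. Of 23 S-phase genes measured, 22 were lower and 1, TYMS (0.19), higher, with a median of -0.93, and GINS2 (-2.40), MCM7 (-2.05), POLA1 (-1.90), CDT1 (-1.88) and CDC45 (-1.88), all of the replication machinery, fell most. Clone 1 was higher than clone 2 in 21 of these 23 (8.77% of all named clusters), with a median difference of 0.77, beside 44 of 82 and 0.40 for the histone members. Between shGFP and parental cells 12 of the 23 were lower (median -0.42, with 6.96% of all named clusters lower), whereas no histone member was lower. Of 15 G2 and M phase genes 13 were lower (median -0.63). The part of S-phase gene levels in the histone differences was not tested. Leukocyte and endothelial markers were higher in 3 of 6 measured, up to 0.89 for CD14, and fibroblast markers in 1 of 6, PDGFRA (0.28). PTPRC, DCN and LUM were the dimmest of these, at percentiles 2.4, 2.6 and 0.9 of the named clusters in the clones. In shGFP they were at 1.9, 2.1 and 0.7. COL1A1 was at percentile 59.8 in the clones and 58.7 in shGFP, and CD14 at 44.1 and 30.5. COL1A2 was at 38.4 and 38.0, and COL3A1 at 37.9 and 36.4. The remaining markers ran from percentile 13.7 (PECAM1) to 27.1 (CDH5) in the clones and from 9.5 to 25.7 in shGFP. All lines were cultured ZR-75-1 cells, and whether any other cells were present was not tested.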

How the data were processed

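RNA from the 8 arrays was labelled with the Affymetrix whole-transcript kit, whose random priming needs no poly(A) tail. The authors deposited log2 intensities for every transcript cluster, made with GCOS and RMA per the submitters' notes, with neither version given. RMA removes background, equalizes the distributions of the arrays and combines the probes of a cluster, so a change in total mRNA per cell is not seen. Low intensities hold much background, which shrinks differences there. The array is called human exon 1.0 st in the methods, whereas the identifiers matched the annotation of the Human Gene 1.0 ST array, from which symbols were taken (19460 clusters had 1 symbol and 1754 several, and 12083 are unnamed here). In labels such as 1-2 the leading number was read as the ZR-shEI24 clone, the other as its replicate.

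Array medians were 7.28 to 7.39. Arrays correlated at 0.993 to 0.997 within a line and at 0.919 to 0.936 between clones and controls, and none were identical. The median SD within a line was 0.11 on the log2 scale for the members. The number of arrays limits the precision.

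A mean was fitted for each line with limma (version 3.58.1, R 4.3.3, lmFit and eBayes), leaving 4 residual degrees of freedom. P-values were adjusted by Benjamini-Hochberg over the 21214 named clusters, with a threshold of 0.05. The procedure was tested on simulated data. Same-numbered arrays deviated together (correlations of 0.243 to 0.581 over all 6 pairs of lines), so the replicate number was taken to pair them and was fitted as a block in an alternative. The members, gene lists and comparisons were chosen with earlier results of these data known. Named were, per class, the 3 members with the largest difference and the one with the highest mean, then the 3 with the largest difference between the clones and between shGFP and parental cells, and up to 4 of each other list. Further members, pairs, neighbours and flanking genes were named outside that rule, after their values were seen. Alternatives were another control, fewer arrays, each line as 1 replicate, other normalizations, filters and variance models, a 2-fold threshold, an unpaired t-test as in the methods, and each array left out in turn. Counting identical clusters once and leaving out clusters dim in every line were added after seeing the data. Gene order, names and promoter windows came from RefSeq, GRCh38.p14.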

Additional observations from a re-analysis of the deposited data

Results flagged for a closer look

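The 2 shEI24 clones differed from each other in 14 of the histone clusters picked by the rule for named genes, by limma's test of clone 1 minus clone 2 at an adjusted p under 0.05. Of all 82 members, 44 were higher and 2 lower in clone 1. Of all 21214 clusters with a gene symbol, 8.77% were higher and 5.55% lower in clone 1. H2BC3, H2BC14 and H3C12 were picked for this same difference, so their place at the top follows from the choice. H2BC3 differed most (2.13, adjusted p = 1.3e-04), being above shGFP by 3.15 in clone 1 and by 1.02 in clone 2. H2BC14 (1.92, adjusted p = 2.8e-05) and H3C12 (1.79, adjusted p = 3.3e-05) came next. H2BC14 was at -0.39 from shGFP in clone 1 and at -2.31 in clone 2, and H3C12 at -1.07 in clone 1 and at -2.85 in clone 2. H2AC15 (1.09), H4C3 (0.92), H2BC9 (0.91), the H3C13, H3C15 and H3C14 cluster (0.86), H2AC21 (0.82) and the H4C11 and H4C12 cluster (0.82) were also higher in clone 1. Smaller differences in the same direction were those of H1-2 (0.52), H2AC20 (0.44), the H2BC19P, H2BC20P and H2BC21 cluster (0.36) and H2BC7 (0.33, adjusted p = 0.045). Of these 14, H1-3 was lower in clone 1 (-0.35, adjusted p = 0.033), at -2.79 from shGFP in clone 1 and -2.44 in clone 2. What sets the clones apart was not tested.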

How the results depend on the processing

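With 82 members, the count called between the clones and shGFP was 72, and 70 to 73 when each array was left out in turn, and the median difference stayed between -1.35 and -1.27. The methods' t-test called 46 of them after adjustment (45 lower) and 59 without it, 42 for clone 1 alone and none between the clones. Of all named clusters this test called 37.3%, 26.1% for clone 1 and 0.0189% between the clones. The main fit called 55.2%, 49.2% and 14.3%. With parental cells as the control the median was -1.12, and -1.56 for clone 2. With a 2-fold threshold 40 members were called for clone 1 against shGFP, 11 between the clones and 0 between shGFP and parental cells.

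In the comparison of shGFP with parental cells, the 6 calls became 12 with the trend and robust variance, 12 with the replicate number as a block and 0 with the methods' t-test, and ranged over 0 to 6 when 1 array was left out. The block moved no other count by more than 1.5 times and changed 1 named call, that of H2AC14 between shGFP and parental cells (adjusted p = 0.048 with the pairing, 0.10 without). The cause was not tested.

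Every other alternative left the member counts within 1.5 times, and the medians within the array spread (203 of 217 values). Within that limit, each line as 1 replicate called 54 members between the clones and the controls (52 lower, 2 higher), against 72. The share called of all named clusters was 33.1% there, against 55.2% with the arrays as replicates. Of 611 values for the named clusters none changed direction, 26 lost their call and 3 gained one. Among those lost, 7 were under each line as 1 replicate (H1-2, H4C3, H2BC3, H2BC14, H3C12, H2AC15 and H4C11/H4C12) and 13 under the methods' t-test. The number of arrays, 2 per line, and dim values limit all of these results.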
